A study of Mus musculus with 12 samples.

Results

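The TIMP genes (Timp1, Timp2, Timp3 and Timp4) encode the tissue inhibitors of metalloproteinases, and they were followed here through visceral white adipose tissue of mice in which genotype and diet were crossed. The 4 genes are 4 of the 50559 gene rows of each library, were taken by symbol, and all 4 passed the filter on low counts. They were chosen by name and with the measured diet differences of Timp1 and Timp4 in these libraries already known, so the diet differences of the 4 genes are given as descriptions. No p-value is printed for them and nothing is read from how many passed a threshold. For these 4 genes, results of a test are read only for the transgene and the genotype by diet interaction, each with a limit given there. Diet tests are printed for other genes, from lists chosen with earlier results of these data known. Most genes named from a list had its smallest p-values, so their p-values are not free of that choice. Where groups are said not to overlap, this only describes their few libraries. The share of all genes without overlap was not counted. Values are CPM, the count of a gene relative to the library's total over all genes, scaled to 1 M, unless another scale is named.

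TIMPs are small secreted proteins whose amino-terminal domain occupies the active site of matrix metalloproteinases (MMPs) and of some ADAM and ADAMTS proteases, the enzymes that cut collagens, other matrix proteins and cell-surface proteins. TIMP1 is known as an inducible member that responds to inflammatory cytokines, TIMP2 both inhibits MMPs and helps the membrane protease MMP14 to activate pro-MMP2, TIMP3 binds to the matrix and inhibits ADAM17 and several ADAMTS proteases, and TIMP4 has the most restricted expression, with heart and adipose tissue among its known sites. In fat, the matrix around adipocytes is remodelled as the cells enlarge, which is the background for reading inhibitors and proteases together.

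RNA-seq counts were analysed for 12 libraries, 3 in each of 4 groups, and all mice were of strain FVB/N. The transgenic groups carried αMHC tTA together with αMHC TGFb, which drives TGF-b1 from the cardiac αMHC promoter, and were fed the high-fat diet or the control diet. The wild-type groups were littermate controls that carried the αMHC tTA driver alone and were fed the same 2 diets. High-fat feeding began at 8 to 10 weeks of age and lasted 2 or 6 weeks, and the labels do not say which time applies to a library. The high-fat diet had 60% of its energy from fat and 5.21 kcal per g, against 17% and 3.1 kcal per g in the control diet, which was a chow and so differed in more than fat. The labels do not state that each library is a separate mouse, so a p-value here measures the spread between libraries, which may be technical. Overexpression lies in the heart, which was not analysed here.

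The libraries held 20.1 to 21.3 M counts assigned to genes. All 16 adipocyte markers had counts, and their summed level was 81250 to 88971 CPM in transgenic high-fat, 77950 to 89940 in transgenic control-diet, 78382 to 89160 in wild-type high-fat and 74791 to 89678 in wild-type control-diet libraries. Libraries stood apart by markers of other tissues. Epithelial markers summed to 210 CPM in transgenic control-diet replicate 2 and to 93.3 CPM in wild-type control-diet replicate 1, against at most 8.31 CPM elsewhere. Striated-muscle markers summed to 795 CPM in transgenic control-diet replicate 3 and to 532 CPM in replicate 3 of the wild-type high-fat group, with no other library above 80.3 CPM. Wild-type high-fat replicate 2 held 349 CPM of liver markers, where no other library exceeded 60.5 CPM. Wild-type control-diet replicate 1 held 220.0 CPM of Schwann cell markers, where no other library exceeded 86.5 CPM.

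Timp1, Timp3 and Timp4 lie within the bounds of synapsin genes, which encode neuronal vesicle proteins, on the opposite strand. In GRCm38 with the GENCODE M21 annotation, Timp1 (ENSMUSG00000001131) runs on the plus strand of chromosome X from 20870166 to 20874735 inside Syn1, with no exonic base shared. Timp3 (ENSMUSG00000020044) runs on the plus strand of chromosome 10 from 86300372 to 86349506 inside Syn3, and 1733 bases, 21.3% of its exons, also belong to Syn3 exons. Timp4 (ENSMUSG00000030317) runs on the minus strand of chromosome 6 from 115241892 to 115252205 inside Syn2, and 90 bases, 1.53% of its exons, are shared. Timp2 (ENSMUSG00000017466) runs on the minus strand of chromosome 11 from 118301069 to 118355740 and itself holds Cep295nl, with no exonic base shared. How strand was treated in counting is not given in the sources used here. It therefore cannot be told whether reads over exons shared by genes of opposite strands went to the right gene, its partner or neither. Reads entered as ambiguous made up 2.54% to 2.88% per library.

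The promoters of Timp1 and Timp4 are printed because these genes differed with diet in opposite directions. Each line gives the sense strand from 250 bases before to 50 bases after the gene's start, from RefSeq on GRCm38.p6, at chrX:20869916-20870215 on the plus strand for Timp1 and at chr6:115252156-115252455 on the minus strand for Timp4. Capitals mark AGGAAG, the core letters of an ETS site, or its reverse complement, and TGAGTAA, a variant of the AP-1 site.
Timp1: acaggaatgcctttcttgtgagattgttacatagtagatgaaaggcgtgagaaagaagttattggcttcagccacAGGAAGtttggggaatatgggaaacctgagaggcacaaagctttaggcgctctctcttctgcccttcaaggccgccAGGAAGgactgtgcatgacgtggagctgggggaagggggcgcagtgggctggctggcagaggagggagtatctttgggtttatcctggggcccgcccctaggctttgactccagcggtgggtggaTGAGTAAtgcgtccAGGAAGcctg
Timp4: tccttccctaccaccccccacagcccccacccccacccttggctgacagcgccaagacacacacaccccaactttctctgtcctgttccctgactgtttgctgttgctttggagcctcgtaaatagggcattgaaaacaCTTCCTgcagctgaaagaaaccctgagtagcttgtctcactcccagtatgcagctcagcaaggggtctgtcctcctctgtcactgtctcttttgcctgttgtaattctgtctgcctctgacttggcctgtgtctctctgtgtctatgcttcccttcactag

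The motifs were searched on both strands with these sequences known, and a match is a description of the letters only. The Timp1 promoter held 3 AGGAAG matches, at -175, -99 and +40 from the start, and 1 TGAGTAA match at +26. The Timp4 promoter held 1 AGGAAG match, on the antisense strand at -111, Timp3 held 1 and Timp2 held 0. AGGAAG occurred in 35.4% of 32851 mouse promoters of the same length, and TGAGTAA in 2.68%. The consensus AP-1 letters TGANTCA (7.81% of promoters), the STAT letters TTCNNNGAA (8.30%) and TATAAA (13.6%) were in none of the 4 TIMP windows. The Sp1 letters GGGCGG (35.7% of promoters) occurred once in Timp1, once in Timp2 and 2 times in Timp3, and not in Timp4. The GC content was 55.0% for Timp1, 68.7% for Timp2, 67.0% for Timp3 and 53.3% for Timp4.

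Timp1, the inducible member, had its highest levels in wild-type mice on the high-fat diet. It measured 15.9, 6.37 and 5.40 CPM in transgenic high-fat libraries, against 6.17, 3.18 and 3.85 CPM in transgenic control-diet libraries. It measured 13.3, 36.1 and 29.2 CPM in wild-type high-fat libraries, against 4.07, 3.95 and 8.12 CPM in wild-type control-diet libraries. All 3 wild-type high-fat libraries lay above all wild-type control-diet libraries, whereas the transgenic diet groups overlapped because transgenic high-fat replicate 3 lay below transgenic control-diet replicate 1. The group means were 9.23 ± 5.81, 4.40 ± 1.57, 26.2 ± 11.7 and 5.38 ± 2.37 CPM in transgenic high-fat, transgenic control-diet, wild-type high-fat and wild-type control-diet libraries (SD, n = 3 each).

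On the log2 scale the fitted diet difference of Timp1 was 1.09 (SE 0.46), or 2.13-fold, in transgenic tissue and 2.21 (SE 0.46), or 4.64-fold, in wild-type tissue. The transgenic value rested largely on 1 library: without transgenic high-fat replicate 1 it was 0.46. That library also had the highest summed level of the 16 macrophage markers, 1501 CPM, against 1055 to 1146 CPM in the other transgenic high-fat libraries, 965 to 1093 in transgenic control-diet, 1217 to 1485 in wild-type high-fat and 1076 to 1295 in wild-type control-diet libraries. Among wild-type high-fat libraries the order was the other way: replicate 1 had the highest macrophage sum, 1485 CPM, and the lowest Timp1, 13.3 CPM. All 16 macrophage markers had counts, and the part of macrophages in the Timp1 differences was not tested. In whole tissue, fewer cells of a type and less RNA per cell cannot be told apart. Without the pair of epithelium-rich libraries the Timp1 diet difference was 0.93 in transgenic and 2.05 in wild-type tissue, and without the pair of muscle-rich libraries it was 0.97 and 2.11.

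Timp4, the member with the most restricted expression, had the opposite diet direction. It measured 38.0, 83.7 and 62.6 CPM in transgenic high-fat libraries, against 176, 70.5 and 172 CPM in transgenic control-diet libraries. It measured 59.2, 61.2 and 88.7 CPM in wild-type high-fat libraries, against 409, 242 and 203 CPM in wild-type control-diet libraries. Every wild-type control-diet library lay above every high-fat library of either genotype, while transgenic control-diet replicate 2 lay among the high-fat libraries. The group means were 61.4 ± 22.9, 139 ± 59.7, 69.7 ± 16.5 and 285 ± 109 CPM in transgenic high-fat, transgenic control-diet, wild-type high-fat and wild-type control-diet libraries (SD, n = 3 each).

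The fitted diet difference of Timp4 was -1.14 (SE 0.37) on the log2 scale, 2.21-fold lower on the high-fat diet, in transgenic tissue and -2.10 (SE 0.38), 4.30-fold lower, in wild-type tissue. Transgenic control-diet replicate 2, the lowest control library for Timp4, and wild-type control-diet replicate 1, the highest, were also the pair rich in epithelial markers. Without that pair the diet difference was -1.44 in transgenic and -1.75 in wild-type tissue, and without the muscle-rich pair it was -0.997 and -2.33.

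**Figure D1:**
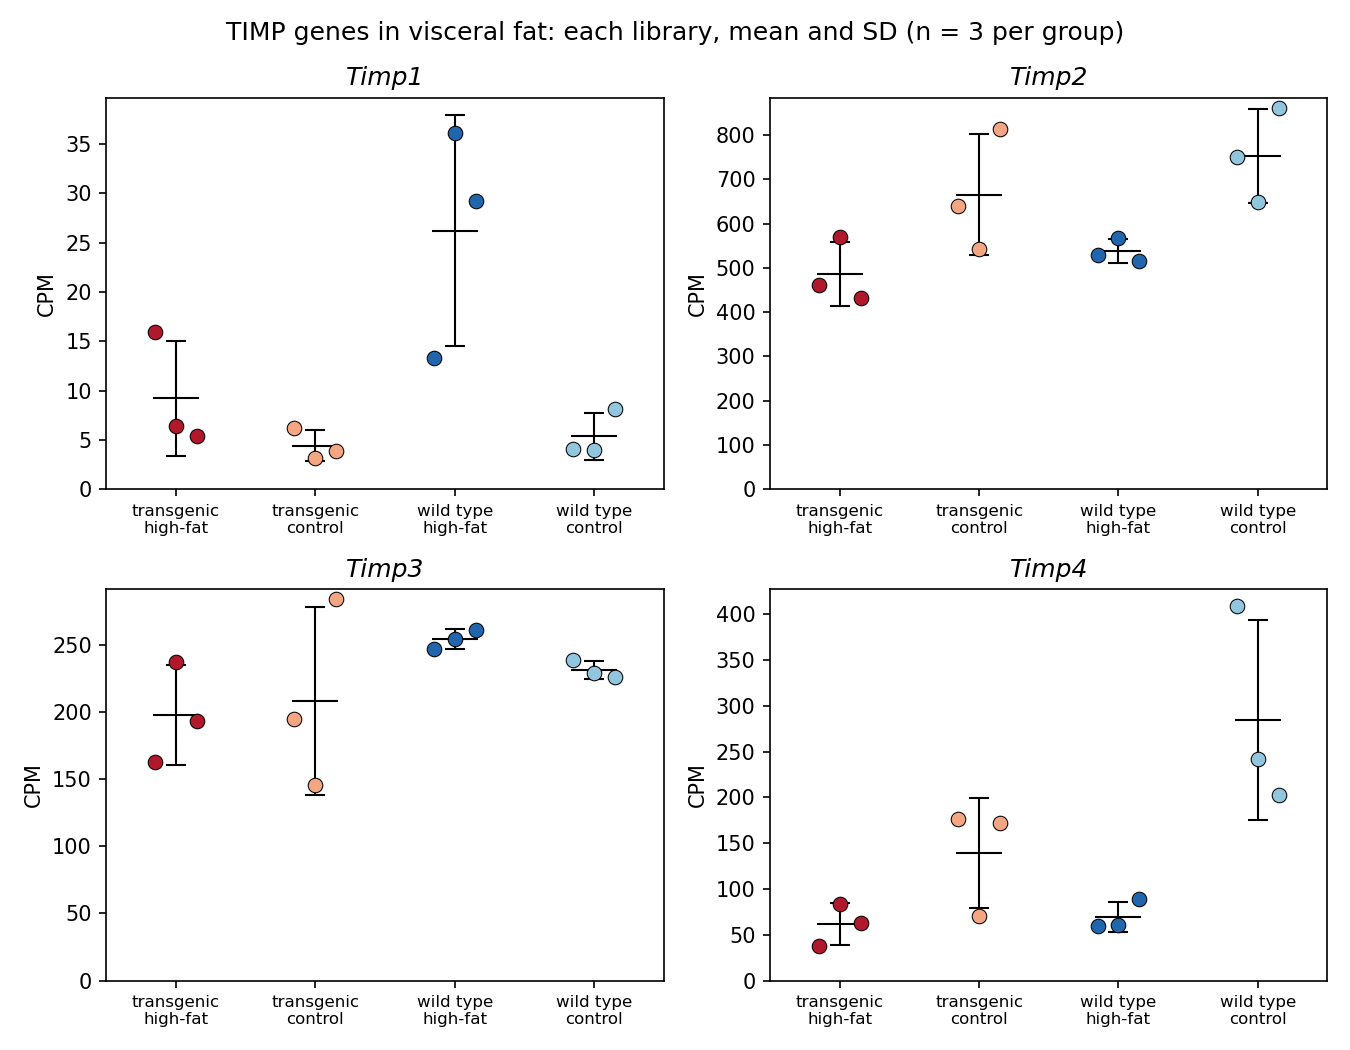
CPM of each TIMP gene in each of the 12 libraries (points), with the mean and SD of each group of 3 (bars), on linear axes from 0. Timp1 is high in wild-type high-fat libraries at 13.3 to 36.1 CPM, Timp4 is high in wild-type control-diet libraries at 203 to 409 CPM, and Timp3 keeps within 146 to 284 CPM over all libraries.

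Timp2, the MMP14 partner, was lower on the high-fat diet by a smaller ratio than Timp4. It measured 461, 569 and 431 CPM in transgenic high-fat libraries, against 641, 542 and 813 CPM in transgenic control-diet libraries. It measured 529.7, 568 and 516 CPM in wild-type high-fat libraries, against 749, 648 and 861 CPM in wild-type control-diet libraries. The wild-type diet groups did not overlap and the transgenic ones did, through transgenic high-fat replicate 2 and transgenic control-diet replicate 2. The diet difference was -0.42 (SE 0.14) in transgenic and -0.55 (SE 0.14) in wild-type tissue on the log2 scale.

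Timp3, the matrix-bound inhibitor, showed the smallest diet differences of the 4 genes. It measured 163, 237 and 194 CPM in transgenic high-fat libraries, against 195, 146 and 284 CPM in transgenic control-diet libraries. It measured 247, 255 and 261 CPM in wild-type high-fat libraries, against 239, 229 and 227 CPM in wild-type control-diet libraries. The transgenic libraries spanned a wide range on either diet, and the wild-type libraries a narrow one in which the high-fat group lay just above the control group. The fitted diet difference was -0.04 (SE 0.19) in transgenic and 0.06 (SE 0.19) in wild-type tissue.

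Of the 4 genes, 0 were called in the diet comparison of transgenic tissue by edgeR's quasi-likelihood test at an adjusted p below 0.05, where 8.73% of 16550 genes were called. 3 had an unadjusted p under 0.05, as had 4278 of the 16550 genes. Other fits of that comparison called 1 or 2 of them: DESeq2 called Timp2, the fit with no filter called Timp1 and Timp4, and the fits without the epithelium-rich pair or without transgenic control-diet replicate 2 called Timp4. In wild-type tissue 2 of the 4, Timp1 and Timp4, were called, where 1.14% of genes were called, and DESeq2 called Timp2 as well. These comparisons were in view when the genes were chosen, so nothing is read from either count or from which fits keep a call. The fits also differed in how many of all genes they called. In wild-type tissue, leaving out the epithelium-rich pair ended the Timp1 call, and leaving out the muscle-rich pair ended both. Over the 12 fits that left out 1 library, 0 to 269 of all genes were called in wild-type tissue. Timp1 was called in 5 and Timp4 in 7 of these 12 fits. Without wild-type control-diet replicate 1 or 2, or any wild-type high-fat library, neither gene was called, and without transgenic control-diet replicate 1 or transgenic high-fat replicate 2 only Timp4 was. The authors' deposited tables give log2 differences of 1.09 for Timp1 and -1.14 for Timp4 with diet in transgenic tissue, and of 2.22 and -2.10 in wild-type tissue.

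The transgene comparisons asked whether adipose TIMP levels differed between mice with and without heart-driven TGF-b1 on the same diet. These comparisons share their libraries with the diet differences known when the genes were chosen. Their differences, p-values and intervals for Timp1 and Timp4 are therefore not free of that choice. No TIMP gene passed the test on either diet. On the high-fat diet edgeR called 0 of 16550 genes (0%), with 1114 genes at an unadjusted p under 0.05 and 3 called by DESeq2. Timp1 was lower in transgenic high-fat libraries, at 5.40 to 15.9 CPM, than in wild-type high-fat libraries, at 13.3 to 36.1 CPM, by -1.42 (SE 0.44) on the log2 scale, a 2.67-fold difference that missed the threshold (adjusted p = 0.712). The groups overlapped only through transgenic high-fat replicate 1 and wild-type high-fat replicate 1, the libraries with the highest macrophage sums of their groups, 1501 and 1485 CPM. The transgenic library had the highest Timp1 of its group, and the wild-type library the lowest of its group. Without transgenic high-fat replicate 1 the Timp1 difference was -2.06, and it was between -2.06 and -1.14 over all 12 fits that left out 1 library. The 95% interval of the difference, -2.44 to -0.40, was not corrected for the number of genes.

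On the same diet Timp3 was lower in transgenic libraries, at 163 to 237 CPM, than in wild-type libraries, at 247 to 261 CPM. The difference of -0.28 (SE 0.19) did not pass the test (adjusted p = 0.814). Timp2 differed by -0.06 (SE 0.14, adjusted p = 0.958) and Timp4 by -0.10 (SE 0.37, adjusted p = 0.977), with 95% intervals of -0.39 to 0.27 for Timp2 and -0.94 to 0.75 for Timp4.

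On the control diet 0.0363% of genes were called (6 of 16550), none of them a TIMP gene. Timp4 was lower in transgenic libraries, at 70.5 to 176 CPM, than in wild-type libraries, at 203 to 409 CPM. The difference was -1.06 (SE 0.37) on the log2 scale, or 2.08-fold, and did not pass the test (adjusted p = 0.319). It passed in the fit that kept every gene with a count (adjusted p = 0.0393). The epithelium-rich pair held the lowest transgenic and the highest wild-type value, and without that pair the difference was -0.41 (adjusted p = 0.857). Timp1 differed by -0.29 (SE 0.47, adjusted p = 0.870), Timp2 by -0.19 (SE 0.14, adjusted p = 0.667) and Timp3 by -0.18 (SE 0.19, adjusted p = 0.774).

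The interaction was computed as the transgenic diet difference less the wild-type one. It asked whether the 2 genotypes differed in their diet response, and edgeR called no gene (0% of 16550, with 929 at an unadjusted p under 0.05 and 30 called by DESeq2). For Timp1 and Timp4 the interaction is built from diet differences known when the genes were chosen. Its p-values and intervals for them are therefore not free of that choice. Timp1 had an interaction of -1.13 (SE 0.64, adjusted p = 0.870, 95% interval -2.60 to 0.35). Timp4 had one of 0.96 (SE 0.52, adjusted p = 0.864, 95% interval -0.23 to 2.15), which was 0.31 without the epithelium-rich pair. For both genes the diet difference was nearer to 0 in transgenic tissue, but the difference between genotypes was not resolved at this number of libraries. Timp2 had 0.13 (SE 0.20) and Timp3 -0.10 (SE 0.26), each also short of the threshold.

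**Figure D2:**
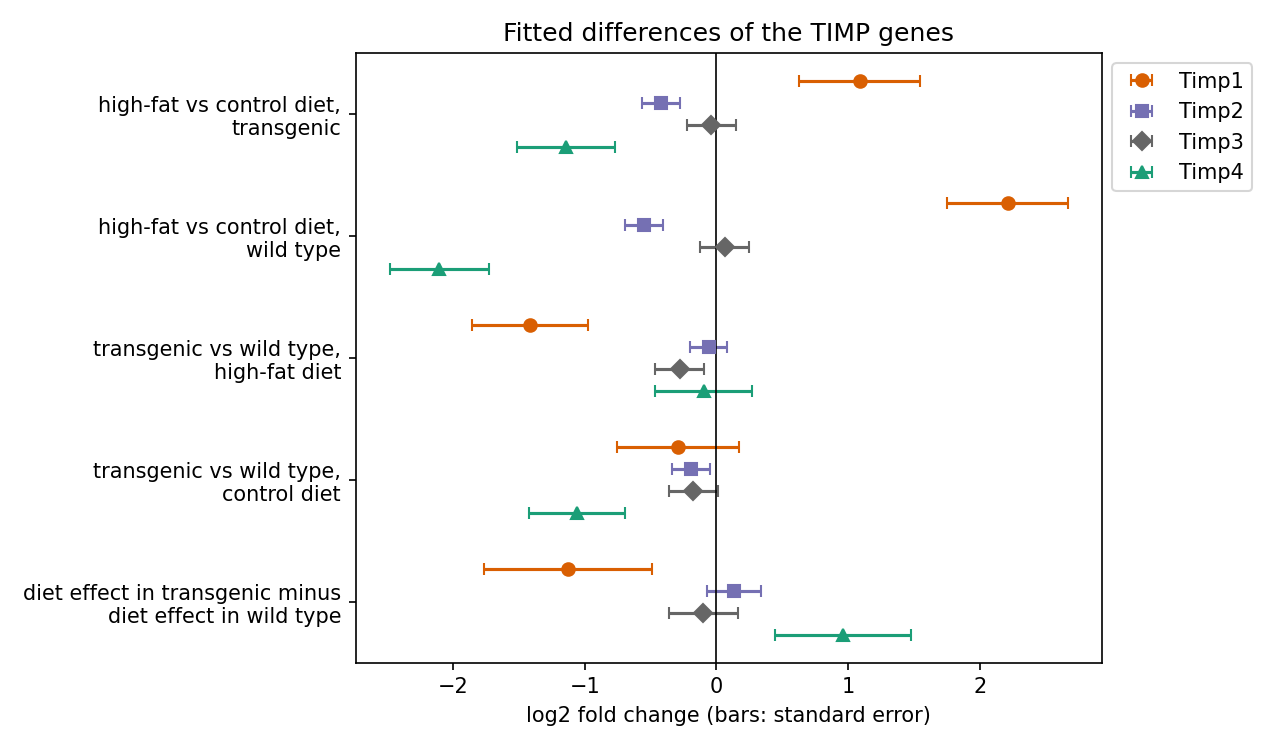
Fitted log2 fold changes of the 4 TIMP genes in the 5 comparisons (symbols), with bars of 1 standard error and a line at 0. Timp1 and Timp4 lie on opposite sides of 0 in both diet comparisons, at 2.21 and -2.10 in wild-type tissue, while Timp2 and Timp3 stay between -0.55 and 0.13 throughout.

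Timp1 and Timp4 were also set against each other within each library. The ratio of Timp4 to Timp1 CPM was 2.39 to 13.1 in transgenic high-fat libraries, against 22.2 to 44.6 in transgenic control-diet libraries. It was 1.69 to 4.45 in wild-type high-fat libraries, against 25.0 to 100.6 in wild-type control-diet libraries. The diet groups did not overlap in this ratio in either genotype, which follows from the pattern for which the genes were chosen. Across the 12 libraries the log2 levels of Timp1 and Timp4 correlated at -0.57, but the libraries fall into diet groups, and the correlation was -0.17 over the 6 high-fat and 0.23 over the 6 control-diet libraries. After the group means were taken out, the correlation over the 12 libraries was -0.24. The pooled value was thus more negative than each of these, and 6 libraries per diet are too few to settle a relation.

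**Figure D3:**
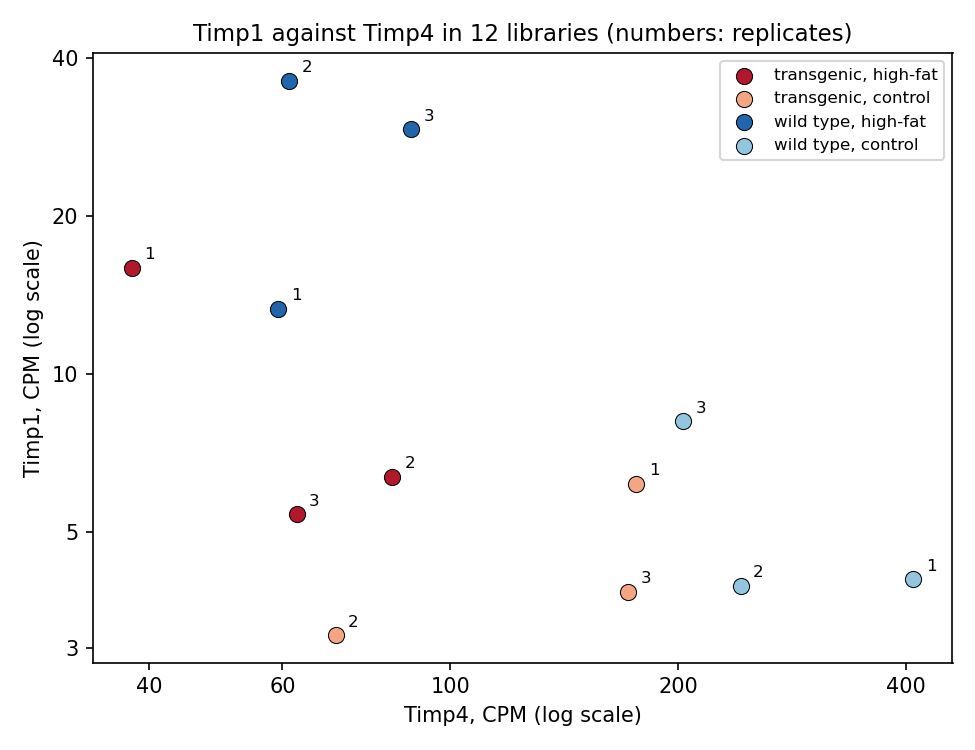
Timp1 against Timp4 in the 12 libraries, in CPM on log axes, with the replicate number beside each point. High-fat libraries lie to the left at 38.0 to 88.7 CPM of Timp4, together with transgenic control-diet replicate 2, and the control-diet libraries lie low for Timp1 at 3.18 to 8.12 CPM.

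Levels can be compared between genes only per length, here as CPM per kb of merged exons (888 bases for Timp1, 3896 for Timp2, 8144 for Timp3 and 5894 for Timp4). On this scale Timp2 led in every group, with means of 125, 171, 138 and 193 CPM per kb in transgenic high-fat, transgenic control-diet, wild-type high-fat and wild-type control-diet libraries. Below it the order differed by group. In transgenic high-fat libraries Timp3 followed at 24.3, with Timp4 and Timp1 at 10.4 each and overlapping. In transgenic control-diet libraries Timp3 at 25.6 and Timp4 at 23.7 overlapped, and Timp1 was lowest at 4.96. In wild-type high-fat libraries Timp3 at 31.2 and Timp1 at 29.5 overlapped, and Timp4 averaged 11.8. Timp4 and Timp1 also overlapped there, narrowly, with a highest Timp4 value of 15.045 and a lowest Timp1 value of 14.976. In wild-type control-diet libraries Timp4 followed at 48.3, Timp3 at 28.4 and Timp1 at 6.06, with no overlap. With the length of the longest RefSeq transcript instead, Timp3 averaged 41.9 to 53.9 CPM per kb over the groups and overlapped Timp4 in wild-type control-diet libraries (49.1 for Timp3 against 51.8 for Timp4), so the place of Timp3 depends on the gene model.

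Summed over the 4 genes, the level per kb of merged exons was 170.0 ± 23.6 CPM per kb in transgenic high-fat libraries, against 225 ± 52.2 in transgenic control-diet libraries, and 211 ± 18.5 in wild-type high-fat libraries, against 276 ± 31.3 in wild-type control-diet libraries (SD, n = 3 each). Timp2 made up 73.4%, 76.3%, 65.8% and 69.98% of that sum in transgenic high-fat, transgenic control-diet, wild-type high-fat and wild-type control-diet libraries. Timp4 made up 6.08% and 10.2% in transgenic high-fat and control-diet libraries, and 5.63% and 17.4% in wild-type high-fat and control-diet libraries. Timp1 made up 6.24% and 2.24% in transgenic high-fat and control-diet libraries, and 13.7% and 2.18% in wild-type high-fat and control-diet libraries.

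The spread between libraries of a group also differed among the 4 genes. The SD of log2 CPM within groups, with 8 degrees of freedom, was 0.65 for Timp1, 0.17 for Timp2, 0.26 for Timp3 and 0.56 for Timp4. Timp1 and Timp4, the genes with large diet differences, were thus also the most variable between replicates.

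Since Timp4 shares exonic bases with the synapsin gene around it, Syn2 was read beside it. Syn2 measured 3.66, 9.19 and 7.38 CPM in transgenic high-fat libraries, against 16.5, 19.5 and 8.11 CPM in transgenic control-diet libraries. It measured 6.10, 5.65 and 6.39 CPM in wild-type high-fat libraries, against 14.9, 18.1 and 10.97 CPM in wild-type control-diet libraries. Syn2 differed with diet by -1.11 (SE 0.37, adjusted p = 0.0787) in transgenic and by -1.36 (SE 0.37, adjusted p = 0.0884) in wild-type tissue. This was the same direction as Timp4, without passing the edgeR threshold. By the authors' test in their deposited tables, Syn2 passed in both. It differed there by -1.10 (adjusted p = 0.0325) in transgenic and by -1.35 (adjusted p = 5.35e-06) in wild-type tissue. The correlation of Timp4 with Syn2 was 0.85 over the high-fat and -0.14 over the control-diet libraries, and the part of shared reads was not tested. Syn1, around Timp1, stayed at or below 1.30 CPM and Syn3, around Timp3, at or below 1.35 CPM, and neither was called in any comparison. Cep295nl, inside Timp2, had 0 to 9 counts per library and was not tested.

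By the correlation of log2 CPM over the 12 libraries, among 13088 genes compared, Timp1 was most like Dek (0.92), S100a4 (0.91), Kdelr3 (0.89), AI662270 (0.88) and Ppig (0.88). Timp2 was most like Antxr1 (0.97), Smo (0.95), Tspyl2 (0.95), Abca4 (0.95) and Tmem151a (0.94). Timp3 was most like Lsm14a (0.90), and the next 4 genes (Eif5a2, Eepd1, Bicd2 and Alpk2) reached 0.82 to 0.83. Timp4 was most like Ccl24 (0.97), a chemokine gene, then Laptm4a (0.95), Laptm4b (0.93), Il18 (0.93) and Tspyl2 (0.92), so that Tspyl2 stood in the lists of both Timp2 and Timp4. These are the highest of many values over libraries that share diet groups, and are given as a description. After the group means were taken out, the correlation was 0.88 for Timp1 with Dek, 0.96 for Timp2 with Antxr1, 0.89 for Timp3 with Lsm14a and 0.89 for Timp4 with Ccl24. Ccl24 measured 8.41, 11.998 and 10.5 CPM in transgenic high-fat libraries, against 21.3, 9.15 and 18.9 CPM in transgenic control-diet libraries, with the same low control library as Timp4. It measured 9.07, 10.8 and 11.5 CPM in wild-type high-fat libraries, against 25.8, 24.9 and 20.5 CPM in wild-type control-diet libraries, with no overlap. Since Ccl24 was picked for its likeness to Timp4 over these libraries, its diet difference is not tested apart from it.

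Among the members themselves, Timp2 and Timp4 correlated at 0.50 over the 6 high-fat and 0.61 over the 6 control-diet libraries. Timp3 correlated with Timp4 at 0.80 and 0.72 and with Timp2 at 0.70 and 0.79 over the same sets. Timp1 stood apart from the other 3, with values between -0.17 and 0.45 over either set.

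The proteases that TIMPs inhibit were counted beside all genes tested, of which 5.39% were called higher and 3.34% lower with the high-fat diet in transgenic tissue, and 0.683% higher and 0.453% lower in wild-type tissue. These shares are the background for each list count that follows, and the lists were not tested against it or against each other. Of 23 listed MMPs, 13 were tested. In transgenic tissue 1 rose and 1 fell with the high-fat diet, and in wild-type tissue 0 rose and 1 fell. The list's median log2 difference was -0.04 in transgenic and -0.13 in wild-type tissue, against -0.02 and -0.01 over all genes tested. Mmp9, gelatinase B, measured 5.04, 9.70 and 4.002 CPM in transgenic high-fat libraries, against 16.3, 17.2 and 17.5 CPM in transgenic control-diet libraries. Mmp9 measured 6.29, 4.94 and 5.49 CPM in wild-type high-fat libraries, against 20.1, 15.4 and 13.3 CPM in wild-type control-diet libraries. It fell by 1.42 on the log2 scale in transgenic tissue (SE 0.27, adjusted p = 0.0107) and by 1.62 in wild-type tissue (SE 0.28, adjusted p = 0.0244). The Mmp9 call was kept in all 12 fits that left out 1 library in transgenic tissue and in 7 of 12 in wild-type tissue, where it was lost without wild-type control-diet replicate 1 or 2 or any wild-type high-fat library. Mmp12, the macrophage elastase, measured 21.3, 13.8 and 22.5 CPM in transgenic high-fat libraries, against 0.84, 3.08 and 3.80 CPM in transgenic control-diet libraries, and rose by 2.92 (SE 0.82, adjusted p = 0.0468). DESeq2 gave it no adjusted p, and the call was kept in 3 of the 12 fits that left out 1 library. In wild-type tissue Mmp12 was not called, and wild-type high-fat replicate 1 alone held 105.3 CPM. Mmp2, gelatinase A, averaged 118 and 97.6 CPM in transgenic high-fat and control-diet libraries and 139 and 136 CPM in wild-type high-fat and control-diet libraries, and was called in neither genotype. Mmp14, the membrane protease that works with TIMP2 on pro-MMP2, averaged 54.2 and 70.3 CPM in transgenic high-fat and control-diet libraries and 81.4 and 87.5 CPM in wild-type high-fat and control-diet libraries, and was also not called.

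Of 8 ADAM proteases tested of 9 listed, 1 rose in transgenic tissue and 0 were called in wild-type tissue. This was Adam8, a leukocyte protease, at 12.8, 6.70 and 11.04 CPM in transgenic high-fat libraries, against 1.73, 3.73 and 2.11 CPM in transgenic control-diet libraries. Its difference was 2.02 (SE 0.57, adjusted p = 0.0460), and it was called in 2 of the 12 fits that left out 1 library. Adam17, the shedding protease inhibited by TIMP3, differed by -0.00 (SE 0.10) in transgenic and 0.03 (SE 0.10) in wild-type tissue.

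Of 18 ADAMTS proteases tested, 4 rose and 0 fell in transgenic tissue, and 1 rose and 0 fell in wild-type tissue, with list medians of 0.33 and 0.45 on the log2 scale. Adamts5, an aggrecanase inhibited by TIMP3, measured 289, 418 and 481 CPM in transgenic high-fat libraries, against 152, 175 and 132 CPM in transgenic control-diet libraries, and rose by 1.39 (SE 0.25, adjusted p = 0.00697). In wild-type tissue its difference was 0.74 (SE 0.24, adjusted p = 0.141). Adamts7 rose by 0.98 (SE 0.15, adjusted p = 0.00353) in transgenic and by 0.79 (SE 0.15, adjusted p = 0.0342) in wild-type tissue, where the call was lost without any 1 of the 6 wild-type libraries. The other 2 calls in transgenic tissue were Adamts17 at 1.72 and Adamts10 at 0.45, which were kept in 7 and 8 of the 12 fits that left out 1 library. Adamts17 was a low gene, with 26 to 56 counts in transgenic high-fat and 11 to 12 in transgenic control-diet libraries. Without the muscle-rich pair 2 ADAMTS genes were called as higher in transgenic tissue.

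Of 2 other metalloproteinase inhibitors tested, Tfpi2, a serine protease inhibitor of the Kunitz type, rose by 1.22 in transgenic tissue (SE 0.24, adjusted p = 0.0120) and differed by 0.73 in wild-type tissue (adjusted p = 0.142). Reck, a membrane-anchored MMP inhibitor, differed by -0.13 (SE 0.16) and -0.34 (SE 0.16) and was called in neither. Of 6 tested genes of plasminogen activation, which feeds MMP activation, none was called with diet in either genotype.

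Among 10 genes listed for TIMP binding, directly or through a partner such as CD63 or MMP9, 3 rose and 1 fell in transgenic tissue. All 10 were tested, and in wild-type tissue 2 rose and 0 fell. Cd74, the invariant chain reported as a TIMP1 receptor in human cells, measured 459, 487 and 594 CPM in transgenic high-fat libraries, against 110.2, 126 and 188 CPM in transgenic control-diet libraries. It rose by 1.89 (SE 0.18, adjusted p = 0.000398), and by 0.91 (SE 0.17, adjusted p = 0.0342) in wild-type tissue. Cd44, the hyaluronan receptor that also docks MMP9, rose by 1.28 (SE 0.15, adjusted p = 0.00151) in transgenic and by 1.10 (SE 0.15, adjusted p = 0.0178) in wild-type tissue. In transgenic tissue both calls were kept in all 12 fits that left out 1 library. In wild-type tissue the Cd74 call was lost without any 1 of the 6 wild-type libraries, and the Cd44 call without replicate 1 or 2 of either wild-type group. Itgb1, the integrin chain that partners CD63 at the cell surface, rose by 0.36 in transgenic tissue and Itga3 fell by 0.80, and neither was called in wild-type tissue. Cd63, the tetraspanin through which TIMP1 signals, differed by -0.37 (SE 0.14) and -0.27 (SE 0.14) and was not called. Kdr, the VEGF receptor that TIMP3 blocks, differed by 0.13 and 0.15 and was not called.

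Of 6 tested cytokines known to induce TIMP1, 1 rose and 1 fell in transgenic tissue, and 1 rose in wild-type tissue. Tgfb1, the endogenous counterpart of the transgene, measured 75.0, 73.3 and 79.6 CPM in transgenic high-fat libraries, against 51.1, 53.7 and 64.2 CPM in transgenic control-diet libraries. It measured 68.9, 73.9 and 65.4 CPM in wild-type high-fat libraries, against 47.1, 43.3 and 47.4 CPM in wild-type control-diet libraries. Tgfb1 rose by 0.46 (SE 0.09, adjusted p = 0.0106) in transgenic and by 0.52 (SE 0.09, adjusted p = 0.0244) in wild-type tissue, and the diet groups did not overlap in either. The call was kept in all 12 fits that left out 1 library in transgenic tissue, and in wild-type tissue it was lost without control-diet replicate 1 or 2 or any high-fat library of that genotype. Tgfb2 fell by 0.72 in transgenic tissue (SE 0.19, adjusted p = 0.0377), a call kept in 4 of the 12 fits that left out 1 library. Tnf had at most 15 counts in any library and was not called. Il6, Il11, Il1a and Il1b had too few counts to be tested. Of 9 receptors for these cytokines, Lifr rose by 0.54 in transgenic tissue (adjusted p = 0.0164) and none was called in wild-type tissue. Of 8 AP-1 and STAT3 factors tested, none was called in either genotype.

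The matrix genes whose proteins MMPs cut formed the longest list. Of 28 tested, 12 rose and 1 fell in transgenic tissue, and 3 rose and 0 fell in wild-type tissue. The list medians were 0.63 and 0.42 on the log2 scale, against -0.02 and -0.01 over all genes tested. The 12 were Col1a1, Col4a2, Col5a1, Col5a2, Col5a3, Col6a1, Col6a2, Col15a1, Col18a1, Nid1, Hspg2 and Sparc, and the 1 that fell was Dcn, the collagen-binding proteoglycan decorin. Col6a2, a chain of the collagen VI that surrounds adipocytes, averaged 1514 ± 327 CPM in transgenic high-fat libraries, against 425 ± 91.7 CPM in transgenic control-diet libraries (SD, n = 3 each), and rose by 1.86 (SE 0.21, adjusted p = 0.00125). In wild-type tissue Col6a2 rose by 1.39 (SE 0.21, adjusted p = 0.0238), and the other 2 calls were Col6a1 at 1.07 and Col15a1 at 0.86. Over the fits that left out 1 library, the number of matrix genes that rose was 6 to 12 in transgenic and 0 to 4 in wild-type tissue, and it was 0 in wild-type tissue without the epithelium-rich pair. In none of these lists was a gene called for the transgene on either diet or for the interaction.

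**Figure D4:**
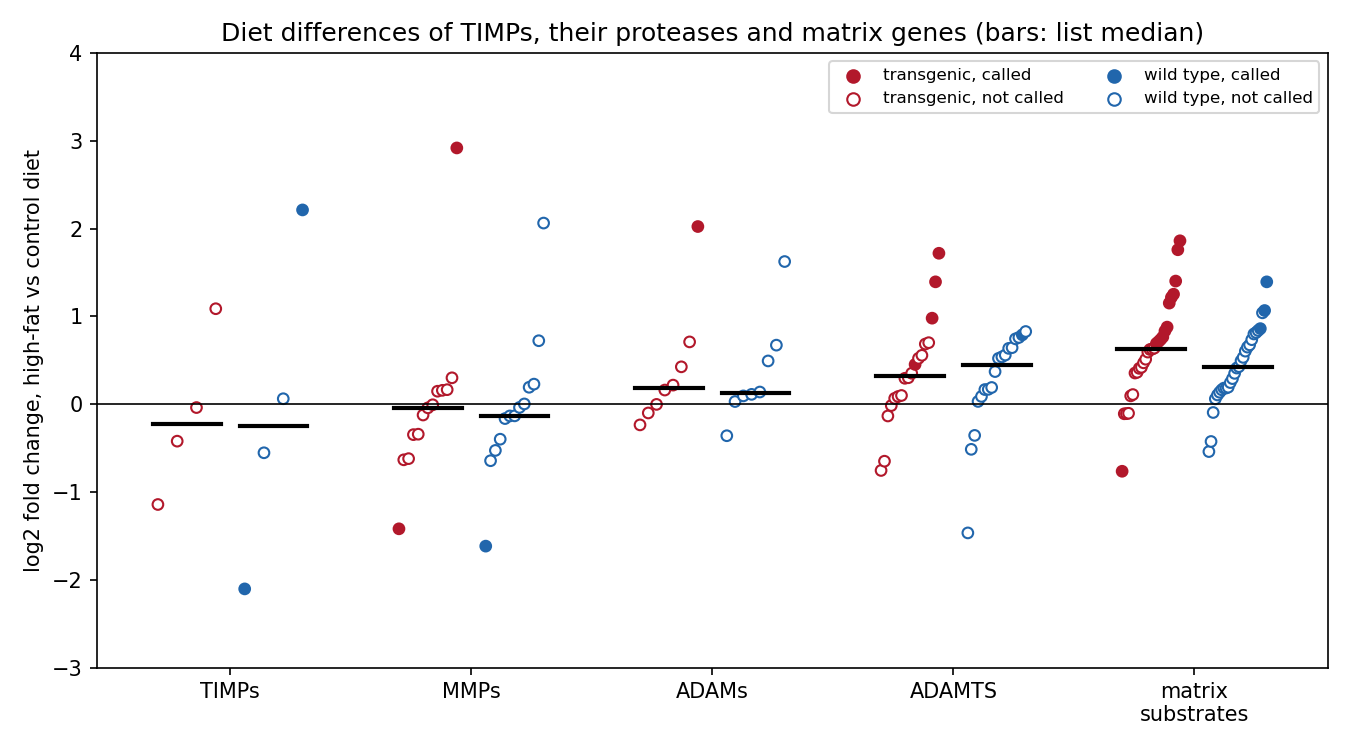
Log2 fold change, high-fat over control diet, of each tested gene among the TIMPs, MMPs, ADAMs, ADAMTS proteases and matrix substrates, in transgenic (red) and wild-type (blue) tissue, with filled points for called genes and a bar at each list's median. The matrix genes lie mostly above 0, with medians of 0.63 and 0.42, the MMPs around 0, and the TIMPs on either side.

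Summed markers of other cell types were also compared by diet. The 12 mesothelial markers, all with counts, summed to 223 to 490 CPM in transgenic high-fat libraries, against 784 to 914 CPM in transgenic control-diet libraries, and to 512 to 642 CPM in wild-type high-fat libraries, against 682 to 1155 CPM in wild-type control-diet libraries. 7 of the 12 fell in transgenic tissue, where 3.34% of all genes were called lower, and 0 were called in wild-type tissue, where 0.453% were. The groups did not overlap in either genotype, in the same direction as Timp2 and Timp4, and their part in those differences was not tested. The summed markers of fibroblasts and progenitors, another known source of TIMPs, were 975 to 1265 CPM in transgenic high-fat, 1147 to 1184 in transgenic control-diet, 1113 to 1296 in wild-type high-fat and 1133 to 1463 in wild-type control-diet libraries, and none of the 12 was called with diet. The 10 endothelial markers, all with counts, summed to 899 to 1153 CPM in transgenic high-fat libraries, against 955 to 1155 CPM in transgenic control-diet libraries, and to 1002 to 1136 CPM in wild-type high-fat libraries, against 770 to 827 CPM in wild-type control-diet libraries, with no overlap in wild-type tissue. The 6 Schwann cell markers, all with counts, summed to 61.5 to 77.3 CPM in transgenic high-fat libraries, against 59.1 to 74.7 CPM in transgenic control-diet libraries, and to 59.5 to 67.0 CPM in wild-type high-fat libraries, against 77.7 to 220.0 CPM in wild-type control-diet libraries, again with no overlap in wild-type tissue. None of the genes of either list was called with diet in wild-type tissue, and their part in the wild-type Timp1 and Timp4 differences was not tested. In transgenic tissue 1 endothelial marker was called higher and 1 lower, and 1 Schwann cell marker higher. Of the 16 macrophage markers, 3 were called higher and 1 lower in transgenic tissue, where 5.39% and 3.34% of all genes were. In wild-type tissue 2 macrophage markers were called higher and 0 lower, where 0.683% and 0.453% of all genes were.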

How the data were processed

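RNA-seq covered 12 libraries of visceral white adipose tissue, 3 per group, prepared with a Zymo column kit and the DNBseq method, per the labels' protocols. The authors deposited whole-number read counts per gene for each library, not normalized. The tools named in the submitters' processing notes are DESeq2 1.32.0, HISAT2 2.2.0 and HTSeq 2.0, with the build mm10. Their gene annotation and strand setting were not given in the sources read. The authors also deposited tables of log2 fold changes and p-values per comparison, per the file headers. These tables are quoted here only for the TIMP genes and Syn2, and are named where quoted. Entries that name no gene, 16.8% to 21.0% of reads, stayed out of library sizes and tests.

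Groups were taken from the sample titles. Counts were fitted in R 4.3.3 with edgeR 4.0.16: filterByExpr (minimum count 10, minimum total 15) kept 16550 genes, TMM factors were 0.950 to 1.07, and 1 mean per group was fitted over the 12 libraries, leaving 8 residual degrees of freedom for the quasi-likelihood test. Adjusted p-values are Benjamini-Hochberg over all genes tested, and called means adjusted p below 0.05. The standard error is the log2 fold change over the square root of F. The biological coefficient of variation was 20.1%. Levels are CPM over gene rows, and log2 CPM for correlations used TMM scaling and a prior count of 2. Counts limit precision for low genes, and intervals cover the model's error only.

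Genes named were the 4 members, the 5 genes most correlated with each, and up to 4 genes per list with the smallest p in any comparison. Cd63, Kdr, Adam17, Mmp14 and the matrix genes listed by symbol fall outside that rule and were named after their values were seen. The members and lists were chosen with earlier results of these data known. Alternatives were DESeq2 1.42.0, RLE factors, no filter, the 6 libraries of a comparison alone, a replicate block, each library left out, and the pairs rich in epithelial or muscle markers left out. The scripts were tested on simulated data.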

Additional observations from a re-analysis of the deposited data

How the results depend on the processing

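Under every alternative the Timp1 and Timp4 diet differences kept their direction in both genotypes. Leaving out 1 library moved Timp1 between 0.46 and 1.42 in transgenic and between 1.94 and 2.60 in wild-type tissue, and Timp4 between -1.44 and -0.88 in transgenic and between -2.33 and -1.75 in wild-type tissue. Small transgene and interaction differences changed sign. Timp4 on the high-fat diet was 0.12 without the muscle-rich pair and -0.39 to 0.15 with 1 library left out, Timp3 on the control diet was 0.016 without the epithelium-rich pair, and the Timp3 interaction was 0.18 without the muscle-rich pair and -0.28 to 0.15 with 1 library left out. With 1 library left out, Timp2 for the transgene on the high-fat diet ran from -0.19 to 0.011 and Timp1 on the control diet from -0.62 to 0.092. Timp4 for the transgene on the control diet passed with no filter, at -1.06.

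Counts of called genes moved more. For diet in transgenic tissue (1445 genes) they were 764 with the 6 libraries alone, 826 without the epithelium-rich pair and 543 to 1505 with 1 library left out. For diet in wild-type tissue (188) they were 847 with DESeq2, 683 with no filter, 32 without the epithelium-rich and 23 without the muscle-rich pair, and 0 to 269 with 1 library left out. For the transgene on the high-fat diet (0) they were 3 with DESeq2 and 5 with no filter. For the transgene on the control diet (6) they were 256 with DESeq2, 269 with no filter, 0 with the 6 libraries alone, 1 without the epithelium-rich and 16 without the muscle-rich pair, and 0 to 58 with 1 library left out. For the interaction (0) they were 30 with DESeq2, 53 with no filter, 1 without the epithelium-rich pair and 0 to 8 with 1 library left out. The causes were not tested, beyond the smaller number of libraries in some fits.

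Replicate numbers are shared across groups, but same-numbered libraries deviated together weakly (correlations -0.074 to 0.160). Such weak correlations cannot exclude a pairing, and the main fit treated the libraries as unpaired. With a replicate block 99 genes were called for diet in wild-type tissue and 0 for the transgene on the control diet, and Timp1 (2.25) and Timp4 (-2.10) were not called for diet in wild-type tissue. List counts with diet changed in the same fits, an alternative added after the data were seen. Among MMPs in transgenic tissue the higher call was lost and 2 were lower with DESeq2, and among matrix genes in wild-type tissue 11 rose with DESeq2. With 3 libraries per group, differences of the size seen for Timp1 between genotypes were not resolved.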
